A study of Mus musculus with 12 samples.

Results

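The cytochromes P450 (Cyp) of families 1 to 4 are the enzymes with which the liver oxidizes drugs, toxins, steroids and fatty acids. They were taken here as every listed gene whose symbol was Cyp, a family number from 1 to 4, 1 subfamily letter and a number, which gave 55 of 17007 genes. This rule left out symbols with a letter after the last number, such as *Cyp4a12a*, and pseudogenes. Of the 55 genes, 54 reached 0.5 FPKM (read fragments per kilobase of exon, adjusted for the size of the library) in at least 3 libraries and were tested among 14397 genes. The exception, *Cyp2t4*, ranged from 0.0550 to 0.491 FPKM.

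P450 enzymes carry a heme group, sit in the membrane of the endoplasmic reticulum and take electrons from P450 oxidoreductase. In the liver they are made mostly by hepatocytes. Their transcription depends on hepatocyte factors such as HNF4A and on receptors that sense ligands: the aryl hydrocarbon receptor for *Cyp1*, CAR and PXR for *Cyp2* and *Cyp3*, and PPARA for *Cyp4a*. Growth hormone pulses make part of the family differ between male and female mice.

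RNA was sequenced from 12 mice in 4 groups of 3. Normal livers came from wild-type C57BL/6 mice, which carried no oncogene, deletion or treatment. The other 3 groups were liver tumors made by pushing plasmids for c-MYC, MCL1 and Cre through the tail vein into hepatocytes of *Rictor* fl/fl *Tsc2* fl/fl mice, so that all tumors carried both oncogenes and the *RictorKOTsc2KO* deletions. Cre was driven by the CMV promoter, and ages were not given. Tumor-bearing mice received vehicle, MLN0128, which blocks the mTOR kinase in both of its complexes, or everolimus, a rapamycin analog that acts on mTORC1. By the sample labels, each drug was given by gavage at 1 mg/kg per day, 6 days a week for 3 weeks from day 6, and mice were sacrificed 3.7 weeks after injection. The account of the sequencing experiment gives a far shorter course, of days, so the length of treatment behind every drug comparison here is uncertain. Oncogenes, deletions and the tumor state cannot be told apart in comparisons with normal liver.

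The reads recovered from the FPKM numbered 17164963 to 25179448 per library, so that a 2 kb transcript with 3 reads would be listed at 0.0495 to 0.144 FPKM. MLN0128 replicates 1 and 2 stood apart: they held *Xist* RNA at 191 and 155 FPKM, against 0.0699 or less in the other 10 libraries, and listed 0 for *Ddx3y*, *Eif2s3y*, *Kdm5d* and *Uty*, genes of the Y chromosome. Results with MLN0128 are therefore given also without both libraries for P450 genes and several gene lists. This leaves 1 MLN0128 library that is assumed to vary like the other groups. Against vehicle, that fit called fewer of all tested genes in both directions, so a changed count there is not read as a result. Each library came from a mouse of its own, so the tests measure the spread between mice.

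Nearly the whole family was lost in vehicle tumors. The 55 genes summed to 17706, 19823 and 18658 FPKM in the 3 normal livers and to 574, 365 and 792 FPKM in the 3 vehicle tumors, 3.08% of the normal mean. In reads they made up 2.62% to 2.94% of a normal liver library and 0.0905% to 0.203% of a vehicle tumor library. By limma's treat, which asks whether a change exceeds 1.5-fold, 42 of the 54 genes were lower and 1 was higher at a Benjamini-Hochberg adjusted p under 0.05, while 16.9% and 15.9% of all tested genes passed in these directions. By limma's moderated test, with no fold threshold, 46 genes fell and 6 rose, beside 33.0% and 36.0% of all tested genes. All 3 tumors lay below all 3 normal livers for 46 genes and above them for 6, against 35.1% and 39.0% of all tested genes. The median log2 fold change of log2(FPKM + 1) was -3.70 for the family and 0.06 for all tested genes. On this scale the change of genes near 0 is understated. In bulk tissue, fewer hepatocytes and less RNA per hepatocyte cannot be told apart.

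The loss differed in depth from gene to gene. Of the 37 genes at 10 FPKM or more in normal liver, 15 kept less than 1% of their normal mean in vehicle tumors, 15 kept 1% to 10% and 7 kept more. The lowest was *Cyp2c54* with 0.0789% and the highest *Cyp2a5* with 31.6%. The 5 largest falls by log2 fold change were those of *Cyp2e1* (-8.93), *Cyp2c29* (-8.24), *Cyp2c54* (-8.22), *Cyp2c50* (-8.19) and *Cyp1a2* (-7.96).

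**Figure D1:**
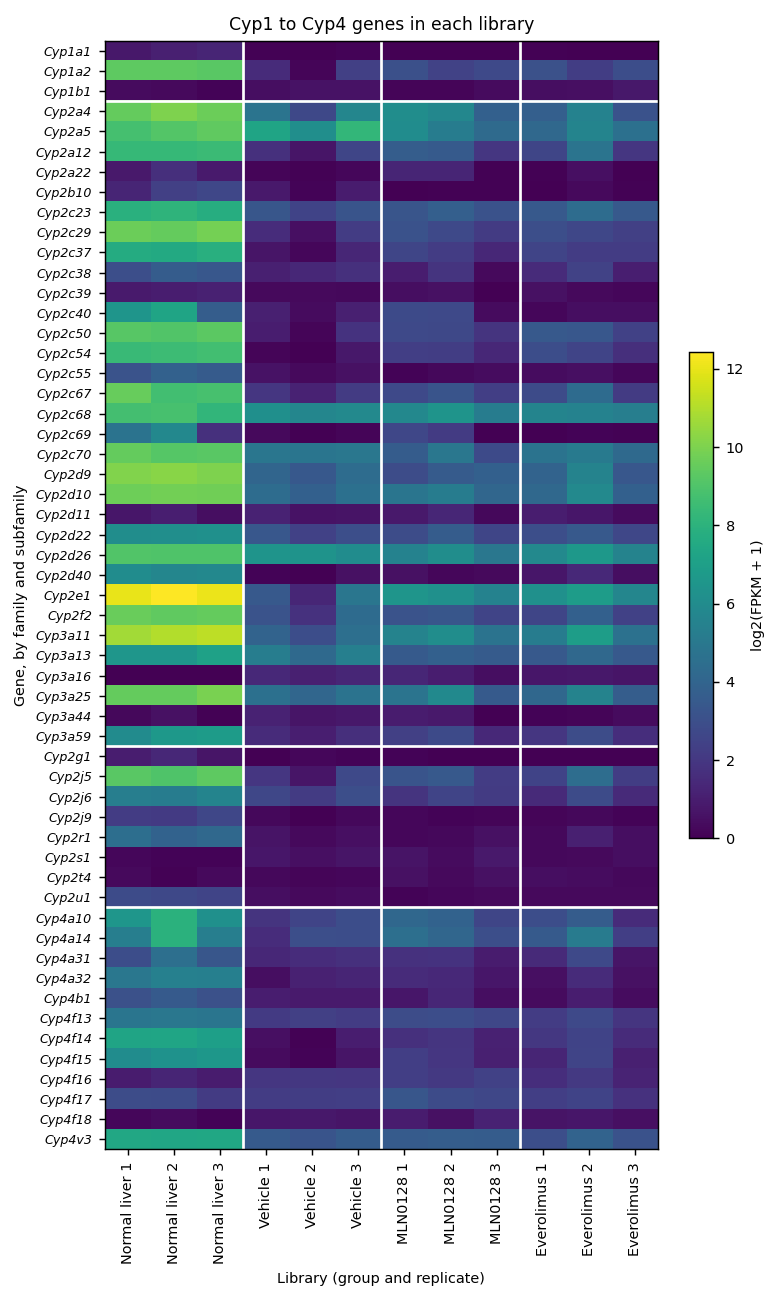
Heat map of the 55 genes (rows, by family and subfamily, with white lines between *Cyp1*, the drug and steroid enzymes of *Cyp2* and *Cyp3*, other *Cyp2* genes and *Cyp4*) in the 12 libraries (columns), colored by log2(FPKM + 1). The bright columns of the 3 normal livers contrast with the 9 tumor columns, in which *Cyp2a5*, *Cyp2c68* and *Cyp2d26* are among the brightest rows with vehicle.

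The *Cyp1* family, the target of the aryl hydrocarbon receptor, has 1 main liver enzyme, *Cyp1a2*, which oxidizes caffeine and aromatic amines. It had 646, 643 and 608 FPKM in normal liver against 1.85, 0.118 and 4.12 in vehicle tumors. Every tumor was far below every normal liver, and the log2 fold change was -7.96 with an SE of 0.42 (adjusted p = 7.4e-08, limma treat). *Cyp1a1*, the inducible form, was low throughout, at 0.732, 1.11 and 1.48 FPKM in normal liver and 0.0502, 0.0340 and 0.0770 in vehicle tumors. These tumor values rest on 2 to 5 reads. *Cyp1b1*, which is mainly made outside hepatocytes, went the other way. It rose from 0.271, 0.248 and 0.0748 FPKM to 0.400, 0.509 and 0.511 (log2 fold change 0.30, adjusted p = 0.036 by limma's moderated test), and it did not pass treat.

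*Cyp2e1*, which oxidizes ethanol, acetaminophen and other small molecules, was the most abundant member and had the largest fall on the log2(FPKM + 1) scale. It had 4220, 5550 and 4240 FPKM in normal liver against 10.2, 1.56 and 28.6 in vehicle tumors, with 71 reads in the lowest of them. The means were 4670 ± 762 (SD, n = 3) and 13.5 ± 13.8 (n = 3), a 347-fold difference of the means (1268-fold for *Cyp2c54*, the largest by this ratio), and the tumors did not overlap with the normal livers (adjusted p = 1.1e-06, limma treat). *Cyp2f2*, a gene of lung and periportal liver, stood at 768, 686 and 726 FPKM in normal liver, and at 7.97, 2.37 and 19.7 in vehicle tumors. It kept 1.38% of its normal mean.

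The *Cyp2a* genes split. *Cyp2a4*, a testosterone 15-alpha-hydroxylase, fell from 729, 1030 and 809 FPKM to 26.6, 5.40 and 51.8. *Cyp2a5*, which oxidizes coumarin and nicotine, had 438, 559 and 672 FPKM in normal liver against 152, 70.9 and 305 in vehicle tumors. The first kept 3.26% of its normal mean and the second 31.6%. For both genes every tumor was under every normal liver. The log2 fold change was -5.33 (SE 0.80) for *Cyp2a4* and -1.87 (SE 0.54) for *Cyp2a5*. By treat the first passed (adjusted p = 0.00031) and the second did not (adjusted p = 0.056), though *Cyp2a5* passed the moderated test (adjusted p = 0.0091). *Cyp2a12* and *Cyp2a22*, the other *Cyp2a* genes, kept 0.805% and 7.91%.

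The DNA before these 2 genes is nearly the same, which is why it is shown here. The stretches are those upstream of the RefSeq start in GRCm38.p6 that hold no annotated exon of either gene, 227 bases at chr7:26306942-26307168 (plus strand) for *Cyp2a4* and 216 bases at chr7:26835089-26835304 (plus strand) for *Cyp2a5*. Capitals mark the 4 bases that differ between them; 212 of 216 aligned bases were identical.
*Cyp2a4*: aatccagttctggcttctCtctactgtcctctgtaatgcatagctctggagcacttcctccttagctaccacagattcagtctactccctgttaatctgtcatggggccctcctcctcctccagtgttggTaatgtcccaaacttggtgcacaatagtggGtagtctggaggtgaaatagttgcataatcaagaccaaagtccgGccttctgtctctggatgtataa
*Cyp2a5*: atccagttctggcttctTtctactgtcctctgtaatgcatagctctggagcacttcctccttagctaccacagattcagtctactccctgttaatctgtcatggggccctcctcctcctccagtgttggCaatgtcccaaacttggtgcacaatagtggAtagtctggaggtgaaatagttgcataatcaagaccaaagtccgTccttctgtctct
The transcripts are also close: 11.2% of the 100-base windows along the *Cyp2a4* exons occur unchanged in *Cyp2a5*, so part of their reads may not have been told apart.

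*Cyp2c* is the largest subfamily, with 13 genes on chromosome 19, whose enzymes oxidize drugs, arachidonic acid and steroids. By treat 12 of the 13 fell, and by the moderated test all 13. *Cyp2c29* had 810, 731 and 907 FPKM in normal liver against 1.97, 0.418 and 3.67 in vehicle tumors. *Cyp2c50* went from 586, 541 and 634 FPKM to 1.01, 0.130 and 2.57, and *Cyp2c54* from 348, 365 and 408 FPKM to 0.132, 0 and 0.752. These *Cyp2c54* values rest on 5, 0 and 31 reads. *Cyp2c70*, the enzyme that makes muricholic acids from other bile acids in mice, kept a fairly even 28.2, 27.9 and 29.9 FPKM in the tumors, from 722, 579 and 611. *Cyp2c68* kept 15.5% of its normal mean, and its neighbor *Cyp2c67* kept 0.480%. Since 19.8% and 23.7% of the 100-base windows of this pair occur in another gene, their values are uncertain.

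The 6 *Cyp2d* genes on chromosome 15 include *Cyp2d9*, a testosterone 16-alpha-hydroxylase of male mice. It had 1090, 1200 and 1030 FPKM in normal liver against 15.7, 9.92 and 19.8 in vehicle tumors. *Cyp2d10* fell from 825, 898 and 844 FPKM to 20.2, 13.1 and 23.5. Of the subfamily, 5 genes fell by treat. *Cyp2d11*, at 0.362 to 1.03 FPKM in normal liver, overlapped between the groups. *Cyp2d26* and *Cyp2d22* were best kept among the 5, at 14.9% and 9.68%. The single *Cyp2b* gene of the family here, *Cyp2b10*, is the usual marker of CAR activity. It was low in normal liver (1.41, 4.08 and 5.22 FPKM) and lower in vehicle tumors (0.773, 0.0898 and 0.915), a difference that passed treat (adjusted p = 0.024).

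*Cyp3a11*, the main PXR target and the counterpart of human CYP3A4, was the second most abundant member. It had 1660, 2040 and 2370 FPKM in normal liver against 14.8, 6.79 and 22.1 in vehicle tumors, and it kept 0.720% of its normal mean. *Cyp3a25* fell from 717, 714 and 995 FPKM to 23.1, 16.3 and 25.3. *Cyp3a13* was kept far better, at 92.0, 92.2 and 138 FPKM against 37.8, 18.1 and 40.7. This left it 30.0% of its normal mean, and the fall passed treat (log2 fold change -1.76, SE 0.29, adjusted p = 0.0041).

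*Cyp3a16*, a gene of fetal and female mouse liver, was the member called higher in vehicle tumors by treat. It reached 0.5 FPKM in tumors alone, so the filter kept it only because it was high there. It was listed at 0 in all 3 normal livers and at 1.67, 1.12 and 1.56 FPKM in vehicle tumors, from 62, 41 and 63 reads. Against the 3 reads that a count of 0 allows in each normal liver, the vehicle mean was at least 8.72-fold higher (adjusted p = 0.0050 by treat). *Cyp3a44*, its neighbor in kind, rose from 0.189, 0.462 and 0.0488 FPKM to 1.28, 0.629 and 0.766 by the moderated test (adjusted p = 0.033). This gene was picked after its values were seen.

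Among the other *Cyp2* genes, *Cyp2j5*, an arachidonic acid epoxygenase, fell from 612, 510 and 664 FPKM to 2.87, 0.627 and 5.80, and all 3 *Cyp2j* genes passed treat. *Cyp2r1*, the vitamin D 25-hydroxylase, had 21.9, 13.8 and 17.4 FPKM in normal liver against 0.552, 0.224 and 0.426 in vehicle tumors. *Cyp2u1*, a long-chain fatty acid hydroxylase, went from 6.10, 5.40 and 4.92 FPKM to 0.356, 0.235 and 0.328. Neither gene overlapped between the groups, and both passed treat (adjusted p = 3.1e-07 and 7.2e-08). Of 7 tested genes of this class, 5 fell by treat. *Cyp2s1*, an enzyme of epithelia, rose by the moderated test at a level of 0.403 to 0.680 FPKM in the tumors.

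The *Cyp4* genes encode fatty acid omega-hydroxylases, and 9 of the 12 fell by treat. The PPARA targets *Cyp4a10* and *Cyp4a14* varied widely between normal livers, at 93.0, 246 and 75.9 FPKM and at 38.7, 249 and 38.4 FPKM, with replicate 2 the highest for both. In vehicle tumors they were at 2.68, 4.81 and 6.64 FPKM and at 2.01, 6.97 and 6.70 FPKM, below every normal liver (adjusted p = 0.00012 and 0.0060 by treat). *Cyp4v3*, the mouse counterpart of the retinal dystrophy gene CYP4V2, had tight values of 175, 166 and 170 FPKM in normal liver and 10.6, 8.28 and 11.5 in vehicle tumors. The *Cyp4f* subfamily split evenly: *Cyp4f13*, *Cyp4f14* and *Cyp4f15* fell by treat, and *Cyp4f16*, *Cyp4f17* and *Cyp4f18* did not. Of these last 3, *Cyp4f16* and *Cyp4f18* rose by the moderated test (log2 fold changes 0.93 and 0.52).

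In all, 12 tested members were not lower by treat. *Cyp2a5*, *Cyp2a22*, *Cyp2c39* and *Cyp2g1* were lower by the moderated test alone, and *Cyp1b1*, *Cyp2s1*, *Cyp3a16*, *Cyp3a44*, *Cyp4f16* and *Cyp4f18* were higher by it. *Cyp2d11* and *Cyp4f17* passed neither. Apart from *Cyp2a5* (556 FPKM) and *Cyp4f17* (5.32 FPKM), the normal liver means of these genes lay between 0 and 1.31 FPKM. Of the higher ones, *Cyp1b1*, *Cyp2s1*, *Cyp3a16*, *Cyp3a44* and *Cyp4f18* were under 0.5 FPKM in every normal liver. They reached the filter through tumors alone, so the filter favored a rise for these genes.

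**Figure D2:**
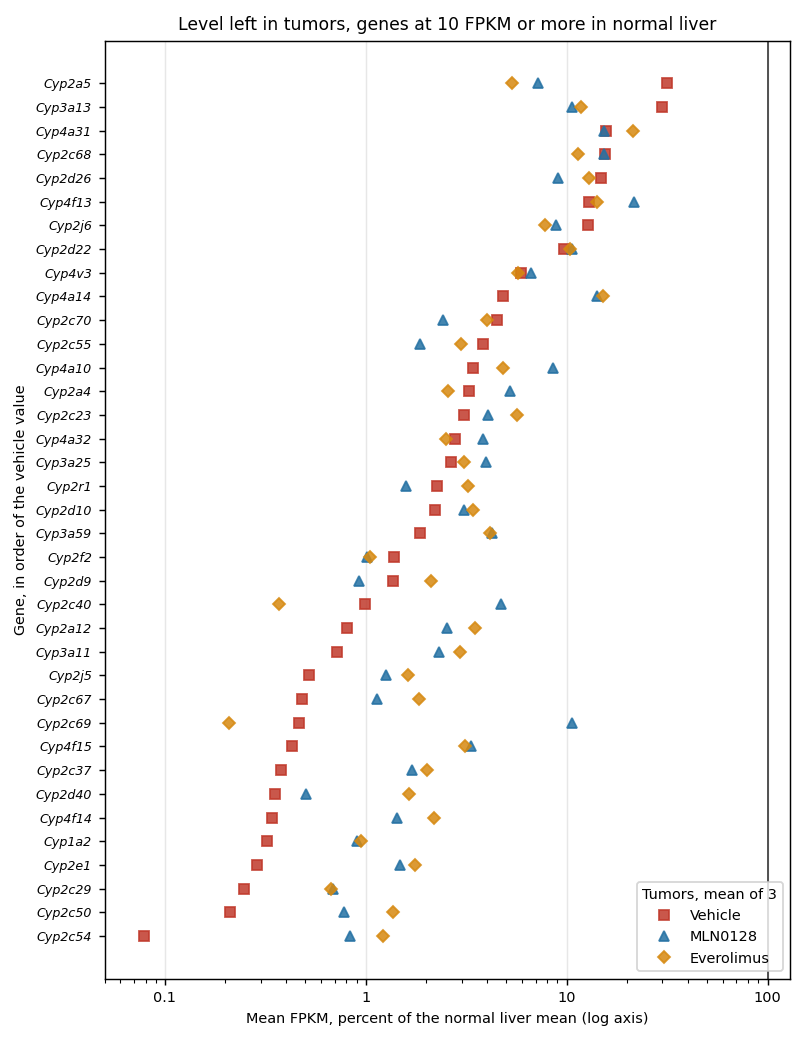
Mean FPKM of vehicle (squares), MLN0128 (triangles) and everolimus (diamonds) tumors as a percentage of the normal liver mean (log axis), for the 37 genes at 10 FPKM or more in normal liver, with n = 3 per group. The highest mean is that of *Cyp2a5* in vehicle tumors, at 31.6%. The MLN0128 mean lies above the vehicle mean for 26 of the 37 genes and the everolimus mean for 24.

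Both drugs left most of the loss in place. The family summed to 635, 716 and 322 FPKM in the MLN0128 tumors and to 457, 931 and 339 FPKM in the everolimus tumors, 2.98% and 3.08% of the normal mean. These sums overlapped with those of the vehicle tumors, but they mix shifts in both directions. The *Cyp2a5* mean was 176 FPKM with vehicle, 40.3 with MLN0128 and 29.6 with everolimus, in mean sums of 577, 558 and 576. Of the 37 genes at 10 FPKM or more in normal liver, 15 kept less than 1% with vehicle, 6 with MLN0128 and 4 with everolimus. The median level left in these 37 was 2.21%, 3.33% and 3.09%. Against normal liver, 42 genes were lower and 1 higher by treat with MLN0128, where 20.2% and 17.1% of all tested genes passed. Without MLN0128 replicates 1 and 2 these counts were 42 and 1 again. With everolimus 43 were lower and 0 higher, where 18.4% and 16.9% passed. At an unadjusted treat p under 0.05 there were also 0 higher genes with everolimus, and limma's voom on the recovered reads gave 1.

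Against vehicle, no member passed treat with either drug. For MLN0128 the percentages of all tested genes that passed were 1.65% lower and 0.479% higher, and for everolimus they were 0.570% lower and 0.0347% higher. At an unadjusted treat p under 0.05 there were 2 lower and 7 higher members with each drug, and treat on voom values called 0 lower and 2 higher members with MLN0128 and 0 in either direction with everolimus. By limma's moderated test 11 members were higher and 3 lower with MLN0128, beside 14.9% and 17.1% of all tested genes, and 5 were higher and 2 lower with everolimus, beside 3.78% and 6.05%. The 11 members are 20.4% of the 54, the 3 are 5.56%, and the 5 and 2 are 9.26% and 3.70%. All 3 MLN0128 tumors lay above all vehicle tumors for 13 members and below them for 6, which is 24.1% and 11.1%, against 22.1% and 23.4% of all tested genes. With everolimus these counts were 10 and 6, or 18.5% and 11.1%, against 17.6% and 14.8%. The shares above vehicle were thus close to those of all tested genes.

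The higher genes with MLN0128 rested on few libraries. Their count was 3 when MLN0128 replicate 1 was left out, 5 for MLN0128 replicate 2, 7 for vehicle replicate 1 and 4 for vehicle replicate 2. Without both MLN0128 libraries that hold *Xist* RNA, the median log2 fold change of the members was -0.08, against 0.14 with all 3. For all tested genes these medians were -0.03 and -0.01. The least stable calls with MLN0128 were those of *Cyp3a11*, *Cyp4f17* and *Cyp1b1*, which held under 13 of 22, 11 of 22 and 9 of 21 alternatives. *Cyp2e1*, *Cyp2c54*, *Cyp2c37* and *Cyp3a13* held under all but the removal of both libraries. With everolimus the 5 higher members became 8 without everolimus replicate 3, and ranged from 4 to 8 over all 12 libraries left out in turn.

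On the log2(FPKM + 1) scale *Cyp2e1* showed the largest rise with both drugs. By the ratio of means it was 5.11 and 6.07 times the vehicle level, and *Cyp2c54* was 10.6 and 15.5 times. From 10.2, 1.56 and 28.6 FPKM in vehicle tumors *Cyp2e1* went to 87.4, 74.6 and 44.3 with MLN0128 and to 75.3, 118 and 51.5 with everolimus. Every drug-treated tumor lay above every vehicle tumor. The log2 fold changes were 2.83 (SE 0.67, limma moderated test, adjusted p = 0.0083) and 3.04 (SE 0.67, adjusted p = 0.017). The means of 68.8 ± 22.1 FPKM (SD, n = 3) and 81.6 ± 33.7 (n = 3) were still 1.47% and 1.75% of that in normal liver. Over the alternatives the adjusted p ranged from 0.0022 to 0.17 with MLN0128 and from 0.0042 to 0.073 with everolimus, where the call was lost without everolimus replicate 1 and in a fit of only the 2 groups.

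The *Cyp2c* genes *Cyp2c54*, *Cyp2c50* and *Cyp2c37*, which lie within the same part of chromosome 19, were higher with both drugs. *Cyp2c54* was at 3.96, 3.77 and 1.61 FPKM with MLN0128 and 6.61, 4.87 and 2.20 with everolimus, after 0.132, 0 and 0.752 with vehicle. *Cyp2c50* was at 5.68, 5.43 and 2.64 FPKM and at 10.2, 9.37 and 4.35, after 1.01, 0.130 and 2.57. *Cyp2c37* was at 5.06, 3.68 and 1.58 FPKM and at 4.93, 3.68 and 3.65, after 0.614, 0.182 and 1.51. In each of the 3 genes all drug-treated tumors lay above all vehicle tumors. The adjusted p of *Cyp2c54* was 0.0033 with MLN0128 and 0.0037 with everolimus by the moderated test, and the everolimus calls of all 3 genes held under every alternative tried. With MLN0128 the call of *Cyp2c50* was lost without MLN0128 replicate 1, replicate 2 or both, without vehicle replicate 2 and in a fit of only the 2 groups, and those of *Cyp2c54* and *Cyp2c37* without both MLN0128 replicates. Their means reached 0.781% to 2.01% of those in normal liver.

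*Cyp4f14*, a leukotriene B4 hydroxylase, was the fifth gene higher with everolimus. It had 0.446, 0.0394 and 0.999 FPKM with vehicle, below the 2.30, 2.77 and 1.20 of the MLN0128 tumors and the 2.99, 4.67 and 1.85 of the everolimus tumors (adjusted p = 0.016 and 0.0094). *Cyp1a2* and *Cyp3a11* passed with MLN0128. *Cyp1a2* was at 7.08, 4.48 and 5.67 FPKM with MLN0128 and 7.39, 3.86 and 6.78 with everolimus, and *Cyp3a11* at 46.7, 67.6 and 25.8 and at 35.9, 119 and 24.0. Against vehicle their log2 fold changes were 1.39 and 1.65 with MLN0128 (adjusted p = 0.026 and 0.040) and 1.43 and 1.76 with everolimus (adjusted p = 0.055 and 0.064), where everolimus replicate 2 overlapped with vehicle replicate 3 for *Cyp1a2*. *Cyp2c29*, *Cyp4f13*, *Cyp4f15* and *Cyp4f17* complete the 11 higher genes with MLN0128. *Cyp4f17* is the one whose mean, 129% of normal, was above that in normal liver.

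The other abundant members did not pass against vehicle. *Cyp2d9* was at 6.32, 11 and 13.3 FPKM with MLN0128 and 14.6, 46.3 and 9.41 with everolimus. *Cyp2d10* was at 27.1, 36.2 and 16.2 FPKM and at 17.7, 57.0 and 13.0. *Cyp2a4* was at 67.1, 53.2 and 13.3 FPKM and at 12.6, 45.2 and 7.78. All 3 overlapped with their vehicle values in both comparisons. The same held for *Cyp3a25* (26.7, 58.4 and 10.6 FPKM with MLN0128, 16.9, 46.1 and 11.9 with everolimus) and *Cyp2f2* (8.07, 9.11 and 4.79, and 5.12, 13.3 and 4.32). *Cyp2c70* was at 11.3, 29.3 and 5.93 FPKM with MLN0128 and 25.3, 32.9 and 18.3 with everolimus, and *Cyp2j5* at 8.53, 10.3 and 3.57 and at 4.76, 20.5 and 3.80.

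Of the members at lower levels, *Cyp4a10* was at 16.6, 13.8 and 5.13 FPKM with MLN0128 and 6.55, 11.5 and 1.92 with everolimus, and *Cyp4a14* at 22.4, 16.5 and 7.04 and at 10.5, 35.1 and 3.93. The MLN0128 values of *Cyp4a14* lay above all vehicle values, with an adjusted p of 0.22. *Cyp4v3* (10.8, 11.8 and 11.4 FPKM, and 6.92, 14.6 and 7.75) overlapped with its vehicle values. *Cyp2r1* (0.166, 0.200 and 0.474 FPKM, and 0.200, 1.16 and 0.361), *Cyp2u1* (0.0873, 0.179 and 0.231, and 0.232, 0.252 and 0.230), *Cyp2b10* (0, 0.0444 and 0.0594, and 0.0251, 0.235 and 0.0570) and *Cyp1a1* (0 to 0.0126, and 0.0119 to 0.0570) did not pass.

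The 2 best kept of the abundant enzymes fell further. Both statements rest on the same vehicle values, so they are not independent of each other. *Cyp2a5* dropped from 152, 70.9 and 305 FPKM with vehicle to 65.8, 36.0 and 19.0 with MLN0128 and to 17.3, 48.6 and 22.9 with everolimus, and every drug-treated tumor lay below every vehicle tumor. The log2 fold changes were -2.03 (SE 0.54, limma moderated test, adjusted p = 0.015) and -2.43 (SE 0.54, adjusted p = 0.018). *Cyp3a13* dropped from 37.8, 18.1 and 40.7 FPKM to 10.6, 12.9 and 10.8 and to 10.1, 17.5 and 10.3, again with no overlap (log2 fold changes -1.34 and -1.25, SE 0.29, adjusted p = 0.0056 and 0.024). Both everolimus calls were lost without everolimus replicate 1 or 3, without vehicle replicate 1 or 3 and in a fit of only the 2 groups, and the MLN0128 call of *Cyp2a5* was lost without vehicle replicate 3. *Cyp2a5* fell to 7.24% and 5.32% of its normal mean, so that its level came near that of *Cyp2a4* in both treated groups. *Cyp1b1*, the third lower gene with MLN0128, was at 0.11, 0.119 and 0.285 FPKM, after 0.400, 0.509 and 0.511 (adjusted p = 0.047).

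**Figure D3:**
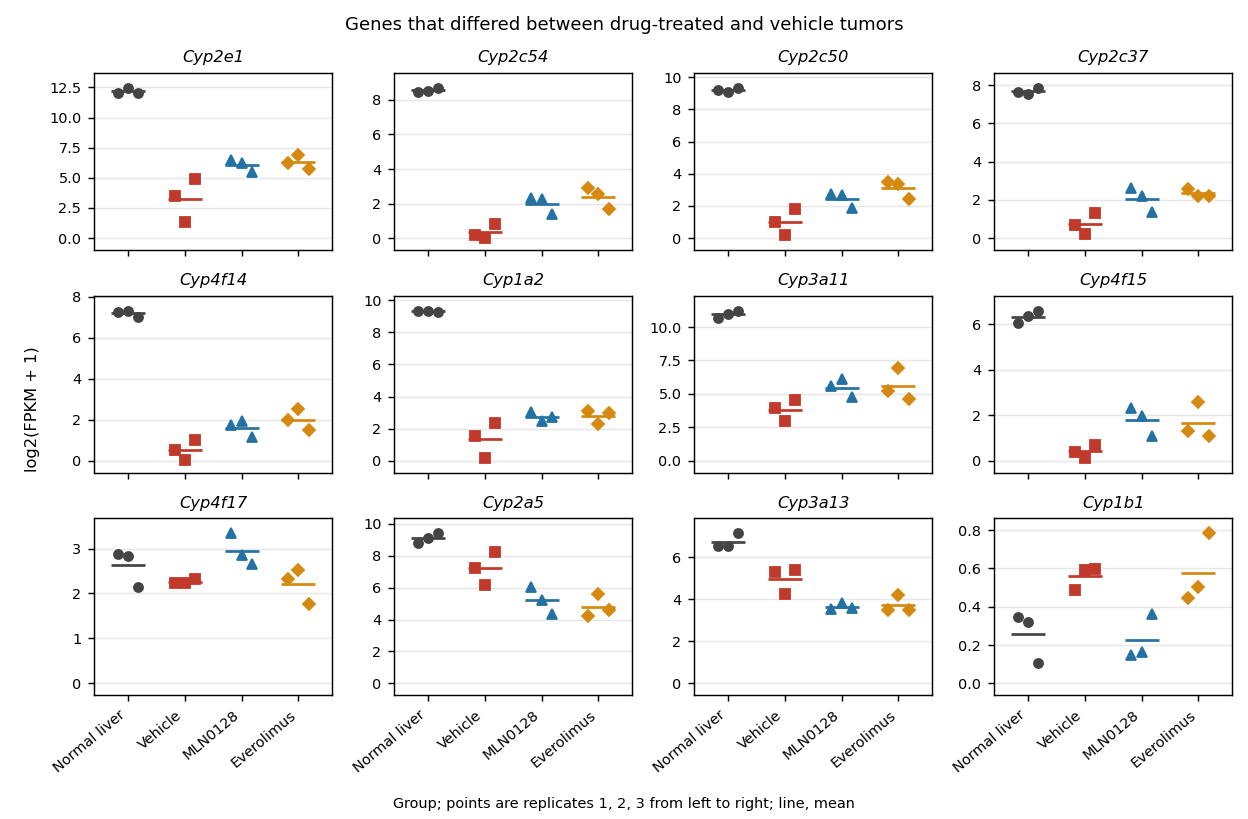
log2(FPKM + 1) of 12 genes in the 4 groups (points, replicates 1 to 3 from left to right; lines, means of n = 3; each panel has its own axis). *Cyp2e1* to *Cyp4f15* have higher means with both drugs than with vehicle and stay far below normal liver, *Cyp4f17* is higher with MLN0128, and *Cyp2a5*, *Cyp3a13* and, with MLN0128, *Cyp1b1* are lower than with vehicle.

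The drugs were not told apart in this family. In MLN0128 against everolimus tumors 0 members passed treat, beside 0.0347% of all tested genes lower and 0.00695% higher, and 0 passed the moderated test, beside 5.54% and 3.99%. At an unadjusted p under 0.05 by the moderated test 3 members were lower and 4 higher, and the moderated test on voom values called 1 lower and 0 higher. The largest difference was that of *Cyp2c40*, with a log2 fold change of 1.58 and an SE of 0.82. Without MLN0128 replicates 1 and 2, 1 member was lower and 0 were higher by the moderated test. *Cyp1b1* was lower in all 3 MLN0128 tumors than in all 3 everolimus tumors (adjusted p = 0.078), and *Cyp4f17* was higher in all 3 (adjusted p = 0.075).

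Single libraries carried much of the spread between tumors. Vehicle replicate 2 was the lowest of its group for 41 of 54 members, against 36.5% of all tested genes. MLN0128 replicate 3 was the lowest for 37 of 54, against 40.9%, and everolimus replicate 2 was the highest for 40 of 53, against 31.5%. Of 27 hepatocyte genes that are no P450, vehicle replicate 2 was the lowest for 22, MLN0128 replicate 3 for 25, and everolimus replicate 2 was the highest for 13.

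Several *Cyp* genes, most of them known to differ between the sexes, moved with the 2 MLN0128 libraries that hold *Xist* RNA. These genes were picked after their values were seen. *Cyp2c40*, which is higher in female mice, was at 5.88, 5.78 and 0.287 FPKM with MLN0128, 1.12, 0.279 and 1.12 with vehicle and 0.156, 0.389 and 0.394 with everolimus. *Cyp2c69* was at 5.19, 3.53 and 0 FPKM with MLN0128, and at 0.237 or less in the 6 other tumors. *Cyp2a22* was at 1.45, 1.46 and 0.0485 FPKM with MLN0128, and *Cyp3a44* at 0.951, 0.789 and 0. In each of the 4 genes, replicates 1 and 2 were the 2 higher MLN0128 libraries, and in *Cyp2c40*, *Cyp2c69* and *Cyp2a22* they exceeded all other tumors. The adjusted p against vehicle was 0.32 for *Cyp2c40* and 0.23 for *Cyp2c69* by limma's moderated test. The part of sex in the drug comparisons was not tested. Within the MLN0128 group, the male-biased *Cyp2d9* was lowest in the same libraries, at 6.32 and 11 FPKM against 13.3. Vehicle replicate 2, at 9.92 FPKM, and everolimus replicate 3, at 9.41, lay below the second of these. Sex-biased genes also differed between normal livers, none of which held *Xist* RNA: *Cyp2c40* was at 87.5, 154 and 11.6 FPKM and *Cyp2c69* at 25.5, 54.6 and 2.33.

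Of 10 tested genes of a list of female-biased liver P450s, 6 fell and 1 rose in vehicle tumors by treat. Of 5 male-biased ones all 5 fell. Among all tested genes 16.9% fell and 15.9% rose. The list medians of the log2 fold change were -2.57 and -6.15. Some female-biased genes started near 0 in normal liver, such as *Cyp3a16* (0 FPKM) and *Cyp3a44* (mean 0.233). Others did not, such as *Cyp2a4* (mean 856). Genes near 0 cannot fall far on this scale, so the 2 medians are not compared. With MLN0128, 1 female-biased gene rose against vehicle by the moderated test, beside 14.9% of all tested genes. With everolimus 1 did, beside 3.78%. This was *Cyp2c37* both times. Without MLN0128 replicates 1 and 2 the rise of *Cyp2c37* lost its call and some female-biased genes were called lower. That fit has 1 MLN0128 library, so these calls are not read as a result. No male-biased gene passed with either drug.

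*Cyp2c40* and *Cyp2c69*, which were high in the same libraries, have upstream DNA that is nearly the same. Shown are 250 bases at chr19:39812815-39813064 and 220 bases at chr19:39886800-39887019 (both minus strand, GRCm38.p6), upstream of both genes' exons, with the 3 differing bases in capitals; 217 of 220 aligned bases were identical.
*Cyp2c40*: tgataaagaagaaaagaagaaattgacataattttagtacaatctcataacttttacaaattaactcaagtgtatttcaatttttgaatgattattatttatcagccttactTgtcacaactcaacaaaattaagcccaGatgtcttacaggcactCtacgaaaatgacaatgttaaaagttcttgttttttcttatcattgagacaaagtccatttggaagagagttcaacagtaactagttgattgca
*Cyp2c69*: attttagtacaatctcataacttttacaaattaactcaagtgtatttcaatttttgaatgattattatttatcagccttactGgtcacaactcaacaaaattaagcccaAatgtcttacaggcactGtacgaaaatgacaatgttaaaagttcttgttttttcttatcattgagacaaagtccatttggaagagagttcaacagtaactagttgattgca
In their exons, 34.4% and 35.4% of the 100-base windows occur in another gene, so that their reads may not have been told apart.

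**Figure D4:**
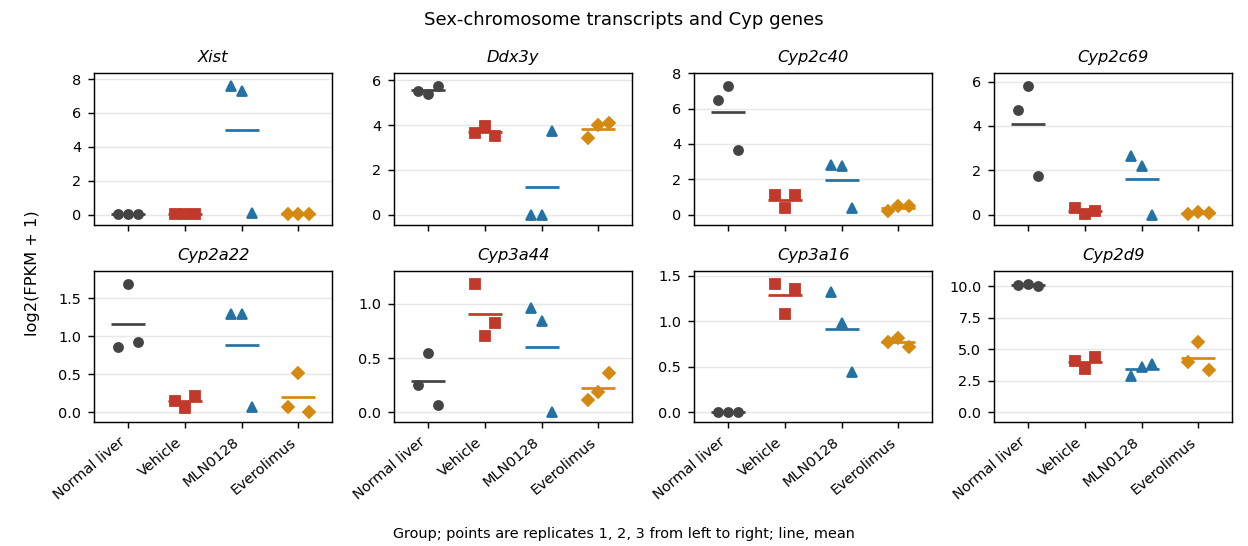
log2(FPKM + 1) of *Xist*, the Y-linked *Ddx3y* and 6 *Cyp* genes, most of them sex-biased, in the 4 groups (points, replicates 1 to 3 from left to right; lines, means of n = 3; each panel has its own axis). MLN0128 replicates 1 and 2 are high for *Xist* and at 0 for *Ddx3y*, and they are the higher MLN0128 libraries for *Cyp2c40*, *Cyp2c69*, *Cyp2a22*, *Cyp3a44* and *Cyp3a16*.

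Many of the transcription factors and receptors known to act on P450 genes were lower. Of 30 tested regulators 18 fell by treat and 0 rose in vehicle tumors, beside 16.9% and 15.9% of all tested genes. The moderated test called 23 lower and 1 higher, 76.7% and 3.33% beside 33.0% and 36.0%. The median log2 fold change was -1.38. *Nr1i3*, which encodes CAR, fell from 8.99, 10.4 and 11.7 FPKM to 0.983, 0.903 and 0.914 (log2 fold change -2.55, adjusted p = 2.3e-05 by treat). *Ghr*, the growth hormone receptor, fell from 135, 120 and 125 FPKM to 10.7, 7.24 and 11.3, and *Dbp*, a circadian factor, from 47.4, 56.4 and 32.6 to 1.37, 1.09 and 1.48. *Hnf4a* fell less, from 217, 239 and 199 FPKM to 113, 91.4 and 107. *Ahr* and *Arnt*, the partners that act on *Cyp1*, were at 4.0, 4.06 and 5.41 and at 5.93, 7.70 and 6.70 FPKM in vehicle tumors, after 8.14, 9.12 and 9.38 and 6.38, 6.16 and 6.55. Neither passed treat, and *Ahr* was lower by the moderated test (adjusted p = 0.0022).

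With MLN0128, 8 regulators rose and 2 fell against vehicle by the moderated test, 26.7% and 6.67% of the 30 beside 14.9% and 17.1% of all tested genes. Without MLN0128 replicates 1 and 2, fewer regulators were called higher and more were called lower. With 1 MLN0128 library left, this shift is not read as a result. With everolimus 3 of 30 rose and 0 fell, beside 3.78% and 6.05%. *Dbp* was at 4.28, 5.08 and 3.28 FPKM with MLN0128 (log2 fold change 1.16, adjusted p = 0.0023). *Cebpa* was at 82.9, 126 and 51.9 FPKM with MLN0128, after 48.7, 40.9 and 50.5 with vehicle, still below its normal 477, 363 and 309. The difference from vehicle rests mostly on MLN0128 replicates 1 and 2, which hold *Xist* RNA, as replicate 3 was close to the highest vehicle value. *Nr1i3* was at 1.87, 3.09 and 1.13 FPKM with MLN0128, and everolimus tumors had 2.55, 2.88 and 1.23. All 6 lay above all vehicle values but did not pass (adjusted p = 0.078 and 0.088).

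Upstream windows of 250 bases were given for 46 of the 55 genes, 51 windows in all, and were searched on both strands for 3 sequences. CAAAGTCCA, a sequence bound by HNF4A, occurred in 7 of 51 windows (13.7%), and in 0.384% of the 32851 windows of all genes. TATAAA, the spelling of the TATA box, occurred on either strand and at any position in 22 (43.1%), and in 12.4% of all windows. Its distance from the start was not considered, so 22 is not a count of TATA boxes. GCGTG, the core of the aryl hydrocarbon receptor's sequence, occurred in 8 (15.7%), and in 28.2% of all windows. The 3 sequences do not overlap with each other in spelling, and windows of related genes are not independent. The stretches with CAAAGTCCA, which is in capitals, are shown because 4 of them come from neighboring *Cyp2c* genes and are nearly alike. Positions are in GRCm38.p6. These windows lie before RefSeq starts and were not trimmed for exons of another annotation. The sequence of *Cyp3a11* lies inside that gene as GENCODE M21 places it, with its start at chr5:145879964 (minus strand).
*Cyp2c40* (chr19:39812841-39812869, minus strand): atcattgagaCAAAGTCCAtttggaagag
*Cyp2c67* (chr19:39649149-39649177, minus strand): atcattgagaCAAAGTCCAtttggaagca
*Cyp2c68* (chr19:39741160-39741188, minus strand): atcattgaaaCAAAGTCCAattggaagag
*Cyp2c69* (chr19:39886826-39886854, minus strand): atcattgagaCAAAGTCCAtttggaagag
*Cyp2c70* (chr19:40187332-40187360, minus strand): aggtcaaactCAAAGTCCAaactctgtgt
*Cyp3a11* (chr5:145879945-145879973, minus strand): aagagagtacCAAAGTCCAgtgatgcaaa
*Cyp3a16* (chr5:145469804-145469832, minus strand): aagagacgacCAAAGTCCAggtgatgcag
Of these 7 genes, 6 fell in vehicle tumors by treat and *Cyp3a16* rose. They range from *Cyp2c68*, with 15.5% of its normal mean, to *Cyp2c69* and *Cyp2c67*, with 0.467% and 0.480%.

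Most of the genes that supply P450s with electrons and heme were lower as well. Of 17, 11 fell and 0 rose in vehicle tumors by treat, beside 16.9% and 15.9% of all tested genes. The moderated test called 16 lower and 1 higher, 94.1% and 5.88% beside 33.0% and 36.0%. *Por*, the oxidoreductase that feeds the electrons, fell from 173, 211 and 191 FPKM to 42.9, 44.7 and 45.8. *Alas1*, the first and limiting enzyme of heme synthesis, fell from 236, 199 and 202 FPKM to 15.0, 12.5 and 20 (log2 fold change -3.68, adjusted p = 3.3e-07 by treat). *Hmox1*, which breaks heme down, was the gene that rose, from 13.5, 22.8 and 7.88 FPKM to 28.8, 45.2 and 50.4 (adjusted p = 0.0042 by the moderated test). It dropped with MLN0128 to 5.55, 3.80 and 9.17 FPKM (adjusted p = 0.00071) and with everolimus to 7.26, 15.6 and 10.7 (adjusted p = 0.014). Against vehicle, 2 genes of this list (*Hmox1* and *Cyb5b*) were lower and 0 higher by treat with MLN0128, beside 1.65% and 0.479% of all tested genes. Without MLN0128 replicates 1 and 2 both calls were lost, while part of the list was lower by the moderated test. That fit has 1 MLN0128 library, so its calls are not read as a result. The moderated test called 8 lower and 1 higher with MLN0128, 47.1% and 5.88% beside 17.1% and 14.9%. With everolimus 0 passed treat, and 2 were lower by the moderated test, 11.8% beside 6.05%.

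The tumors retained RNA of hepatocytes at lower levels. Of 27 tested hepatocyte genes that are no P450, 25 fell in vehicle tumors by treat and 0 rose, beside 16.9% and 15.9% of all tested genes. Their median log2 fold change was -2.92. *Alb* went from 57200, 66000 and 76600 FPKM to 1780, 953 and 1840. Summed over the list, the FPKM spanned 119130 to 136072 in normal liver and 7899 to 11742 in vehicle tumors. MLN0128 tumors spanned 4560 to 9618 and everolimus tumors 7726 to 12796. Against vehicle, *Serpina3k* was the 1 gene of this list that rose by the moderated test with each drug. It is 3.70% of the 27, beside 14.9% of all tested genes with MLN0128 and 3.78% with everolimus. With MLN0128 5 fell and with everolimus 2. These are 18.5% with all 3 MLN0128 libraries and 7.41% with everolimus, close to the 17.1% and 6.05% of all tested genes. The MLN0128 share was higher without replicates 1 and 2, where 1 library is left. With all 3 libraries the list median of the log2 fold change was -0.31 with MLN0128 and 0.03 with everolimus. For all tested genes these medians were -0.01 and 0.03. MLN0128 replicate 3, the library left without replicates 1 and 2, was the lowest of its group for 25 of the 27, against 40.9% of all tested genes. Among biliary and progenitor markers 3 of 5 tested rose in vehicle tumors by treat, beside 15.9% of all tested genes. *Krt19* was at 29.6, 9.49 and 44.0 FPKM there and at 0.152 to 0.944 in the 6 drug-treated tumors, where the list's summed level was 10.4 to 28.2 FPKM with MLN0128 and 17.5 to 62.4 with everolimus, after 37.7 to 93.3 with vehicle.

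Markers of other liver cells moved in both directions in vehicle tumors by treat. By this test 16.9% of all tested genes fell and 15.9% rose. Of 8 macrophage markers 3 fell and 1 rose, and their sum went from 177 to 221 FPKM in normal liver to 73.5 to 116. Of 6 endothelial markers 3 fell and 0 rose, and of 8 stellate cell and fibroblast markers 2 fell and 3 rose. Of 4 tested lymphocyte and neutrophil markers 0 passed, and 0 passed the moderated test. Against vehicle, no marker of these 4 lists passed treat with either drug. *Clec4f*, a Kupffer cell marker, was at 26.2 FPKM in everolimus replicate 2, the highest of the tumors, and at 2.07 in vehicle replicate 2, the lowest. The part of any of these cell types in the P450 values was not tested.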

How the data were processed

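RNA of 3 normal livers and 9 c-MYC/MCL1 liver tumors, each from its own mouse, was sequenced by the authors, who counted reads per Ensembl gene, translated the genes to symbols and deposited FPKM. FastQC 0.11.7 and the GRCm38 build are named in the submitters' processing notes, and the aligner and strand setting are not given in the sources used here. In the deposited FPKM, 22 symbols had turned into dates. Multiplying FPKM by GENCODE M21 exon lengths gave whole reads (within 0.10) for 98.2% to 98.8% of low values, and so 17164963 to 25179448 reads per library. Per unit of FPKM, normal livers had been scaled to 0.585 to 0.596 of their read total, vehicle tumors to 1.12 to 1.15, MLN0128 tumors to 1.16 to 1.37 and everolimus tumors to 1.10 to 1.20.

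Genes at 0.5 FPKM or more in at least 3 of the 12 libraries (14397 of 17007) were tested on log2(FPKM + 1) with limma 3.58.1 in R 4.3.3, in a single model of all 12 libraries with an intensity trend. Calls used treat against a fold change of 1.5 or, where stated, the moderated test, with Benjamini-Hochberg adjustment over all tested genes. An exact permutation test of 3 against 3 libraries cannot go below p = 0.10, so none is given. Genes were named by rule: the 12 most abundant members in normal liver, members higher by treat in vehicle tumors, the 5 largest falls and rises of each comparison, and examples of each class. Members and gene lists (P450 regulators, redox partners and heme supply, P450s of other families, sex-biased P450s, hepatocyte and other cell markers) were chosen with earlier results of these data known. Alternatives changed the pseudocount, filter, scaling, trend, samples and test, added the replicate number as a block, or used limma's voom on recovered reads; leaving out the libraries with *Xist* RNA was chosen after seeing the data. Replicate numbers were checked for pairing: correlations of deviations from group means ran from -0.289 to 0.148 in 18 same-numbered pairs and from -0.287 to 0.396 in 36 others, so the numbers were not used as pairs. Upstream sequences are RefSeq windows of GRCm38.p6. The scripts were tested on simulated data.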

Additional observations from a re-analysis of the deposited data

How the results depend on the processing

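The loss held: by treat, 40 to 43 members were lower in vehicle tumors, 40 to 43 with MLN0128 and 40 to 44 with everolimus when each library was left out in turn, and no call reversed. Of the calls of single members under the alternatives, 885 of 902 held for vehicle tumors against normal liver, 930 of 944 for MLN0128 and 884 of 901 for everolimus, and against vehicle 241 of 307 held for MLN0128 and 135 of 147 for everolimus. Scaling by plain library totals moved the median log2 fold change of vehicle tumors against normal liver to -2.88 for members and 0.62 for all genes, and scaling to the same FPKM sum moved it to -2.79 and 1.00. The cause of the changes below was not tested.

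Counts of members higher by treat in vehicle tumors than in normal liver (1) became 4 with the same FPKM sum, 2 with only the 2 groups, 2 with plain totals, 4 with a pseudocount of 0.1, 3 with voom and 3 with the moderated test and a fold above 1.5. With MLN0128 (1) these were, where they moved, 5 with the same sum, 3 with plain totals, 4 with the pseudocount, 4 with voom and 3 with the moderated test and fold, and 1 to 2 leaving out a library. With everolimus (0) they were 2 with the same sum, 1 with the pseudocount, 1 with voom and 1 with the moderated test and fold.

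Against vehicle, members lower by treat with MLN0128 (0) became 1 without the *Xist* libraries, 2 with the moderated test and fold, and 0 to 1 leaving out a library. Members higher (0) became 1 with the same sum, 1 with plain totals, 1 with the pseudocount, 2 with voom, 11 with the moderated test and fold, and 0 to 2 leaving out a library. By the moderated test the lower members (3) became 6 with voom, 5 without the *Xist* libraries and 1 to 4 leaving out a library (1 without vehicle replicate 3), and the higher members (11) became 0 without the *Xist* libraries and 3 to 12 leaving out a library. With everolimus, members lower by treat (0) became 2 with the moderated test and fold, and higher (0) became 1 with the same sum, 1 with plain totals, 1 with the pseudocount, 5 with the moderated test and fold, and 0 to 2 leaving out a library. By the moderated test the lower members (2) became 1 with only the 2 groups and 0 to 4 leaving out a library (4 without MLN0128 replicate 3, 0 without everolimus replicate 1 or 3 or vehicle replicate 1 or 3), and the higher members (5) 4 to 8. In MLN0128 against everolimus, by the moderated test, lower members (0) became 1 with voom, 1 without the *Xist* libraries and 0 to 1 leaving out a library, and higher members (0) became 2 with the same sum, 3 with plain totals and 0 to 3 leaving out a library.

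With the replicate number as a block, 42 members were lower and 1 higher in vehicle tumors, and against vehicle the moderated test called 4 lower and 10 higher with MLN0128, where *Cyp1b1* and *Cyp3a11* lost their calls, and 2 lower and 6 higher with everolimus. Depth limits genes near 0: with vehicle, *Cyp2c54* and *Cyp1a1* rest on 31 reads or fewer per library.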

Other observations

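Many P450s outside families 1 to 4, and *Cyp4* genes whose symbols end in a letter, were lower too. Of 29 listed, 24 were tested, of which 15 were lower and 2 higher in vehicle tumors by limma's treat. Among all tested genes these shares were 16.9% and 15.9%. The moderated test called 15 lower and 5 higher, 62.5% and 20.8% beside 33.0% and 36.0%. The median log2 fold change was -1.46, against -3.70 for the main family. *Cyp7b1*, an oxysterol hydroxylase, had 494, 216 and 271 FPKM in normal liver against 1.55, 0.679 and 2.42 in vehicle tumors. *Cyp4a12a*, a male-biased arachidonic acid hydroxylase, was at 450, 337 and 406 FPKM and at 1.70, 0.431 and 3.86. Their groups did not overlap, and the log2 fold changes were -6.98 and -7.22. *Cyp7a1*, the rate-limiting enzyme of bile acid synthesis, had a log2 fold change of -3.34, *Cyp8b1* of -3.58, *Cyp26a1* of -2.85 and *Cyp27a1* of -2.46.

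*Cyp39a1*, an oxysterol hydroxylase, rose in vehicle tumors from 4.86, 19.2 and 18.2 FPKM to 39.9, 50 and 39.7. It was at 20, 22.3 and 11.7 FPKM with MLN0128 and 42.2, 32.1 and 49.1 with everolimus, so that all MLN0128 tumors lay below all vehicle tumors while everolimus tumors overlapped with them. *Cyp20a1* was also higher in vehicle tumors, with a log2 fold change of 1.16. *Cyp51*, an enzyme of cholesterol synthesis, had 19.1, 12.8 and 16.6 FPKM with vehicle. MLN0128 tumors had 4.80, 5.06 and 8.32 FPKM and everolimus tumors 12.6, 23.9 and 20.4. Against vehicle, 3 genes of this list were lower and 1 higher by limma's moderated test with MLN0128. These are 12.5% and 4.17%, beside 17.1% and 14.9% of all tested genes. Not all of these calls held without MLN0128 replicates 1 and 2. With everolimus 1 was lower and 0 higher, beside 6.05% and 3.78%.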
